A study of Drosophila melanogaster with 36 samples.

Results

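The genes described here are 10 fly genes for proteins that make, bind or place the poly(A) tail of mRNAs. They were taken by gene identifier from a list that names them by function. The list uses no measured value, but it was chosen with earlier results of these data known. The genes are 10 of the 13820 gene identifiers on the arrays. They comprise the nuclear poly(A)-binding protein gene Pabp2 (CG2163), the poly(A) polymerase gene hrg (hiiragi, CG9854), the genes Cpsf160 (CG10110), Cpsf100 (CG1957), Cpsf73 (CG7698) and Clp (CG3642) of the cleavage and polyadenylation specificity factor (CPSF), the genes su(f) (CG17170), CstF64 (CG7697) and CstF50 (CG2261) of the cleavage stimulation factor (CstF), and the cytoplasmic poly(A)-binding protein gene pAbp (CG5119). Each of them has 1 line of values, all 10 could be tested, and no filter on low values was used.

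The 3′ end of nearly every mRNA is made in the nucleus by cleavage of the pre-mRNA and addition of a poly(A) tail. CPSF recognises the polyadenylation signal and holds the endonuclease, CstF binds the sequence downstream of the cleavage site, and poly(A) polymerase adds the adenosines. As the tail lengthens, the nuclear poly(A)-binding protein covers it and makes the polymerase processive. In the cytoplasm another poly(A)-binding protein takes its place and links the tail to translation and to deadenylation. Short alanine expansions in PABPN1, the human homologue of Pabp2, cause oculopharyngeal muscular dystrophy.

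Thorax RNA was compared between PABPN1-17ala flies, which carry UAS-PABPN1-17ala/+; Mhc-Gal4/+, and control flies, which carry Mhc-Gal4/+, at days 2, 6 and 11 of adult life. Both genotypes thus carry 1 copy of the Mhc-Gal4 driver, which is active in muscles, and the transgene encodes the expanded mammalian protein while the labels name no change to the fly Pabp2 gene in either. Each of the 6 conditions has 6 two-colour arrays, with the thorax RNA in Cy5 on replicates 1 to 3 and in Cy3 on replicates 4 to 6, against a common reference pooled from control RNA at day 2. Each extract came from 50 pooled thoraxes and extracts were made in triplicate, so a Cy5 and a Cy3 array probably share an extract, although the sources used here do not say which. A value is the log2 ratio of thorax RNA over the reference, and 0 means the level of the reference. The log base and the direction are a reading of the values. The direction rests on GstD1, a glutathione S-transferase gene with a reporter that is known to be more active in such flies. Its ratios lay between 1.18 and 2.53 on PABPN1-17ala arrays, against -0.18 to 1.40 on control arrays. A whole thorax holds several tissues, so that fewer cells of a type and less RNA per cell cannot be told apart.

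Some arrays need a word before the results. On 35 of the 36 arrays, the values over all genes correlated best with the mean of their own day among the 3 days of their genotype and dye. The exception was replicate 4 of PABPN1-17ala at day 11, with r = 0.583 to its own day and 0.625 to day 6. The labels of replicate 1 of PABPN1-17ala at day 2 conflict, since 1 of them gives the control genotype. It was kept with PABPN1-17ala. Muscle markers were present and moved with age. Of 14 tested, 8 fell between day 2 and day 11 in PABPN1-17ala flies (median log2 change over the list -1.43), against 1.81% of all genes. In control flies 5 fell (median -1.30), against 0.892% of all genes. Mhc, the muscle myosin heavy chain gene, was among those that fell. The fall was not particular to muscle. Of 6 trachea and cuticle markers, 3 fell in PABPN1-17ala flies (median -0.97) and 2 in control flies (median -0.78), against the same shares of all genes. Of 11 neuron identifiers, several of them for the 1 gene brp, 1 also fell with age in PABPN1-17ala flies. Of 7 fat body markers, 1 rose with age in control flies, where 0.660% of all genes rose. Between the genotypes, 1 of the 14 muscle markers, TpnC4, was called lower in PABPN1-17ala flies at day 6, against 0.667% of all genes. For the mean of the 3 days 2 of the 14, TpnC4 and fln, were called lower, against 1.44% of all genes. No marker of neurons, hemocytes, fat body or trachea and cuticle was called between the genotypes.

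None of the 10 genes was called as different between PABPN1-17ala and control flies at any day. Pabp2 had the largest difference over the 3 days, 1.19-fold higher in PABPN1-17ala flies, and the other 9 genes had log2 fold changes between -0.01 and 0.07. The test was limma in a separate fit for each dye, the p being the larger of both dyes. Benjamini-Hochberg adjustment was over 13791 genes, with a threshold of 0.05. Taking the larger p is strict, so that a gene not called may still differ. With this test 0 of the 10 genes were called at day 2, where 0.950% of all genes were called. At day 6 it was 0 of 10 against a background of 1.60%, and at day 11 0 of 10 against 1.18%. The mean of the 3 days, which is the most precise comparison, called 0 of the 10 genes and 3.18% of all genes. At these shares fewer than 1 call among 10 genes is the background. At an unadjusted p below 0.05 there were 0 of the 10 genes at day 2, against 3.94% of all genes, and 1 each at day 6 (4.92% of all genes), at day 11 (5.99%) and for the mean of the 3 days (7.71%), which was Pabp2 each time. A single limma fit of all 36 arrays with dye as a covariate counts arrays that probably share an extract as separate replicates, so its p-values are likely too small. It called 0 of the 10 genes at day 2 (4.05% of all genes) and 1, again Pabp2, at day 6 (5.20%), at day 11 (9.78%) and for the mean of the 3 days (9.68%). For 10 genes, 0 or 1 is near these shares. Over the 3 days the 10 genes had a median log2 fold change of 0.04, against 0.01 for all genes.

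Pabp2, whose protein is the fly homologue of the one expressed from the transgene, had higher ratios in PABPN1-17ala flies at each day. It was not called by limma with the larger p of both dyes, adjusted over all genes. For the mean of the 3 days each dye alone called it (limma's adjusted p = 0.0433 in Cy5 and 0.00041 in Cy3). On the Cy5 arrays at day 2 its ratios were 0.23, 0.15 and 0.30 in PABPN1-17ala flies, against 0.28, 0.03 and 0.08 in control flies. On the Cy3 arrays at day 2 they were 0.08, 0.22 and 0.06 in PABPN1-17ala flies, against -0.18, -0.10 and -0.10 in control flies. The groups overlapped at day 2 through 1 high control array, and 4 of 6 PABPN1-17ala arrays exceeded every control array of the same dye. All 6 did so for 1.91% of all genes, and the share for at least 4 was not counted.

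At day 6 the ratios of Pabp2 in Cy5 were 0.23, 0.20 and 0.26 in PABPN1-17ala flies, against -0.15, 0.01 and 0.07 in control flies. In Cy3 they were 0.12, 0.13 and 0.30 in PABPN1-17ala flies, against -0.22, -0.18 and -0.25 in control flies. All 6 arrays of PABPN1-17ala flies exceeded every control array of the same dye, which was so for 5.79% of all genes at this day. At day 11 the ratios in Cy5 were 0.26, 0.49 and 0.09 in PABPN1-17ala flies, against 0.08, 0.09 and -0.02 in control flies. In Cy3 they were 0.13, 0.21 and -0.05 in PABPN1-17ala flies, against -0.13, -0.12 and -0.36 in control flies. Again all 6 arrays lay above the control arrays of their dye, as for 2.15% of all genes.

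**Figure D1:**
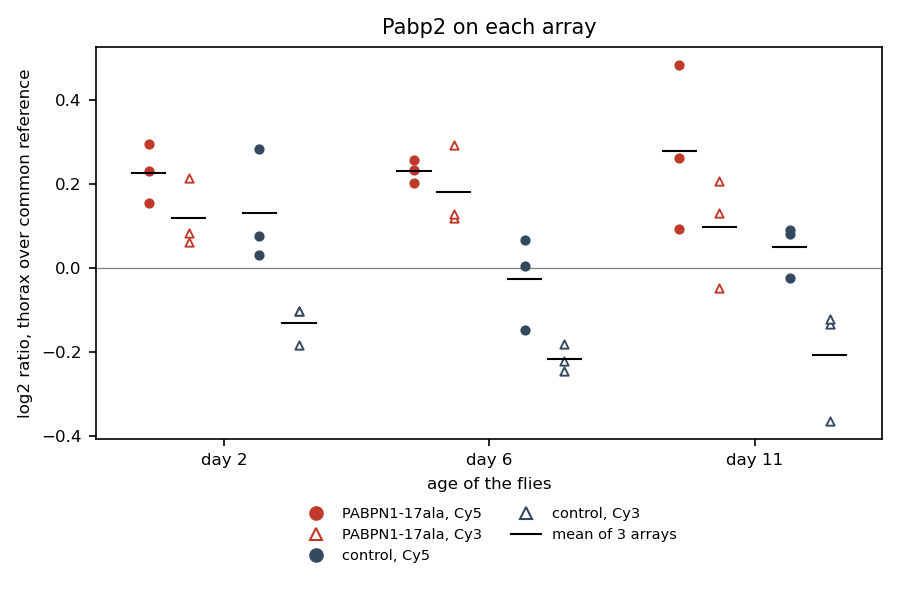
Log2 ratio of Pabp2 (y axis, thorax over common reference) on each of the 36 arrays by age and genotype; filled circles are Cy5 arrays, open triangles Cy3 arrays, and each bar is the mean of 3 arrays. At days 6 and 11 all 6 PABPN1-17ala arrays lie above the control arrays of their dye, and at day 2 1 control array in Cy5 at 0.28 overlaps them.

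The log2 fold change of Pabp2 was 0.17 at day 2 (SE 0.09, adjusted p = 1), 0.33 at day 6 (SE 0.09, adjusted p = 0.426) and 0.27 at day 11 (SE 0.09, adjusted p = 0.591). Averaged over the 3 days it was 0.26, or 1.19-fold, with a 95% interval from 0.15 to 0.36 and limma's adjusted p = 0.074. In each comparison the interval is that of the mean of both dyes and is not adjusted. The p is the larger of both dyes and is adjusted over 13791 genes, so an interval may leave out 0 where p misses the threshold. For the mean of the 3 days the larger limma p of Pabp2 before adjustment was 0.00265. The difference was present in each dye, with 0.19 in Cy5 and 0.32 in Cy3. All 18 PABPN1-17ala arrays lay above the mean of the control arrays of their day and dye, which was so for 0.792% of all genes. Whether Pabp2 counted as changed depended on how both dyes were joined. The single fit, with probable dye swaps counted as replicates, gave limma's adjusted p = 1.86e-06 for the mean of the 3 days. With means of assumed dye swap pairs, limma's adjusted p was 0.000376. Deviations of the arrays in these assumed pairs correlated between -0.222 and 0.231, with a median of 0.027, so the values do not show which arrays pair. Leaving out each replicate number in turn kept the value between 0.24 and 0.27, with adjusted p between 0.0563 and 0.255. The muscle markers had a median log2 fold change of -0.0034 over the 3 days, with 2 of 14 lower by the test, and their part in the values of Pabp2 was not tested. The probe sequences were not used here, and whether the Pabp2 probe also binds RNA of the mammalian transgene was not tested.

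The genotype difference of Pabp2 did not change detectably with age. It was larger at day 11 than at day 2 by 0.09 on the log2 scale, with a 95% interval from -0.17 to 0.36 (adjusted p = 1), in a comparison that called 0 of the 10 genes and 0.290% of all genes. In order of level, Pabp2 was highest in PABPN1-17ala flies at day 6 (0.21 ± 0.07, SD within a dye, n = 3 per dye), then at day 11 (0.19 ± 0.17) and at day 2 (0.17 ± 0.08). The control flies followed at day 2 (0.00 ± 0.10), day 11 (-0.08 ± 0.11) and day 6 (-0.12 ± 0.08). Each pair of neighbours in this order overlapped on at least 1 dye.

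The genes most like Pabp2 over the 36 arrays, once the mean of each gene on each dye was taken off, were CG14907 (Pearson's r = 0.811), CG7694 (r = 0.804) and baf (r = 0.795), out of 13126 other genes with values on all arrays. The arrays share extracts and genotype groups, so these r describe these arrays only.

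**Figure D2:**
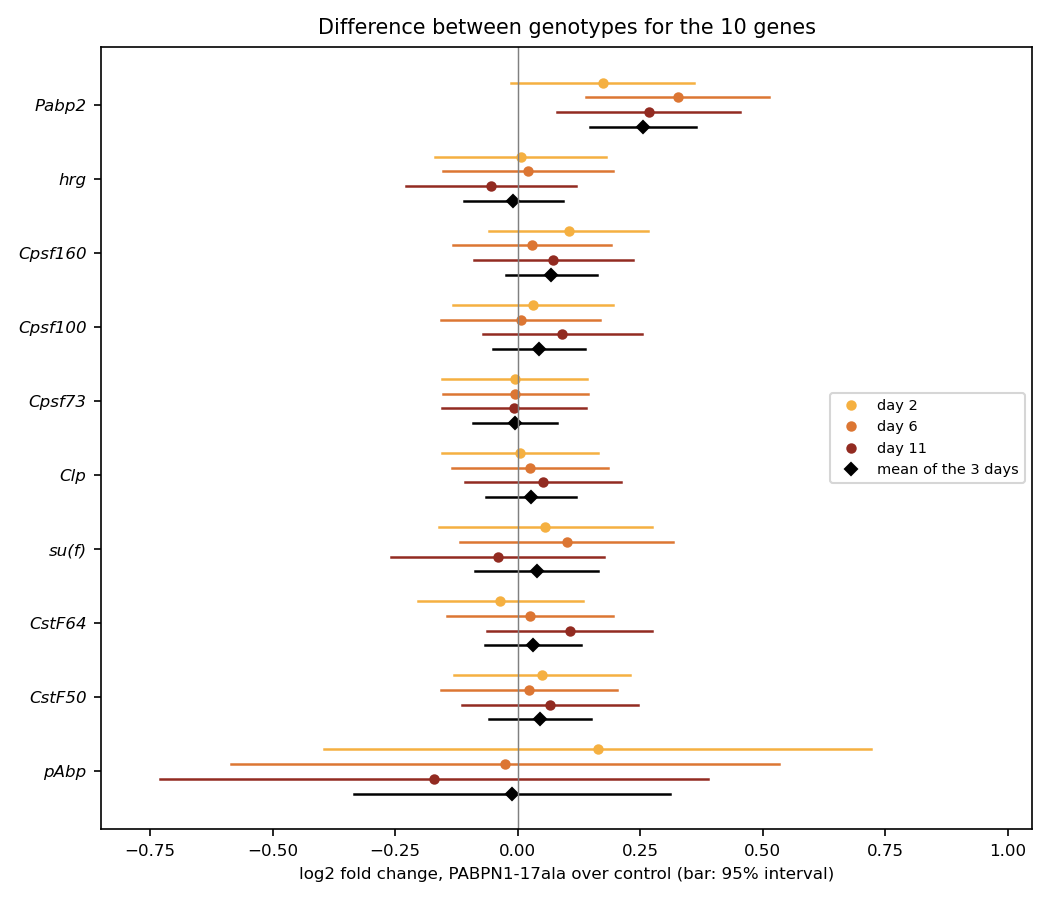
Log2 fold change of PABPN1-17ala over control (x axis) for the 10 genes (y axis) at days 2, 6 and 11 and for the mean of the 3 days; points are fold changes and bars are 95% intervals. The Pabp2 mean of 0.26 has an interval above 0, the means of the other 9 genes lie between -0.01 and 0.07, and pAbp has the widest intervals.

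The poly(A) polymerase gene hrg did not differ between the genotypes beyond its error. Its ratios at day 2 ran from 0.05 to 0.25 with a median of 0.18 on the 6 PABPN1-17ala arrays, against -0.06 to 0.47 with a median of 0.13 on the control arrays. At day 11 they ran from -0.26 to 0.03 in PABPN1-17ala flies, against -0.18 to 0.35 in control flies, and the groups overlapped at each of the 3 days. The log2 fold change over the 3 days was -0.01 (95% interval -0.11 to 0.09, adjusted p = 1), with opposite signs in the dyes (-0.07 in Cy5 and 0.05 in Cy3).

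None of the 4 CPSF genes differed between the genotypes beyond its error. Cpsf160, the large scaffold subunit, had the highest log2 fold change among them over the 3 days, 0.07 (95% interval -0.02 to 0.16). For it, 16 of 18 PABPN1-17ala arrays lay above the control mean of their day and dye. All 18 did so for 0.792% of all genes, and the share for at least 16 was not counted. Cpsf100, an inactive relative of the nuclease, had a log2 fold change of 0.04 (-0.05 to 0.14). Cpsf73, the endonuclease that cuts the pre-mRNA, had -0.01 (-0.09 to 0.08), and its 18 PABPN1-17ala arrays were split, 9 above and 9 below the control mean. Clp, the zinc finger subunit, had 0.03 (-0.06 to 0.12).

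None of the 3 CstF genes differed beyond its error. The log2 fold change over the 3 days was 0.04 for su(f), the scaffold of the complex (95% interval -0.09 to 0.16), 0.03 for CstF64, the subunit that binds RNA (-0.07 to 0.13), and 0.05 for CstF50, a subunit with WD repeats (-0.06 to 0.15). Among them su(f) came closest to separate groups, at day 6, where 5 of 6 PABPN1-17ala arrays exceeded every control array of the same dye. All 6 did so for 5.79% of all genes, and the share for at least 5 was not counted.

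For hrg and the CPSF and CstF genes together, 8 genes, the 95% intervals at single days reached at most -0.26 at the low end and 0.32 at the high end, both for su(f), so that a difference beyond 1.25-fold lay outside all of them. For the mean of the 3 days the intervals stayed between -0.11 and 0.16, and the largest bound was 1.12-fold. These intervals are not adjusted for the number of genes. The spread of these 8 genes between arrays of one condition and dye was an SD of 0.08 to 0.13, and the offset between the dyes was larger than this SD for each of them. Cy5 minus Cy3 was 0.19 for Clp, the highest, and -0.35 for su(f), the lowest.

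**Figure D3:**
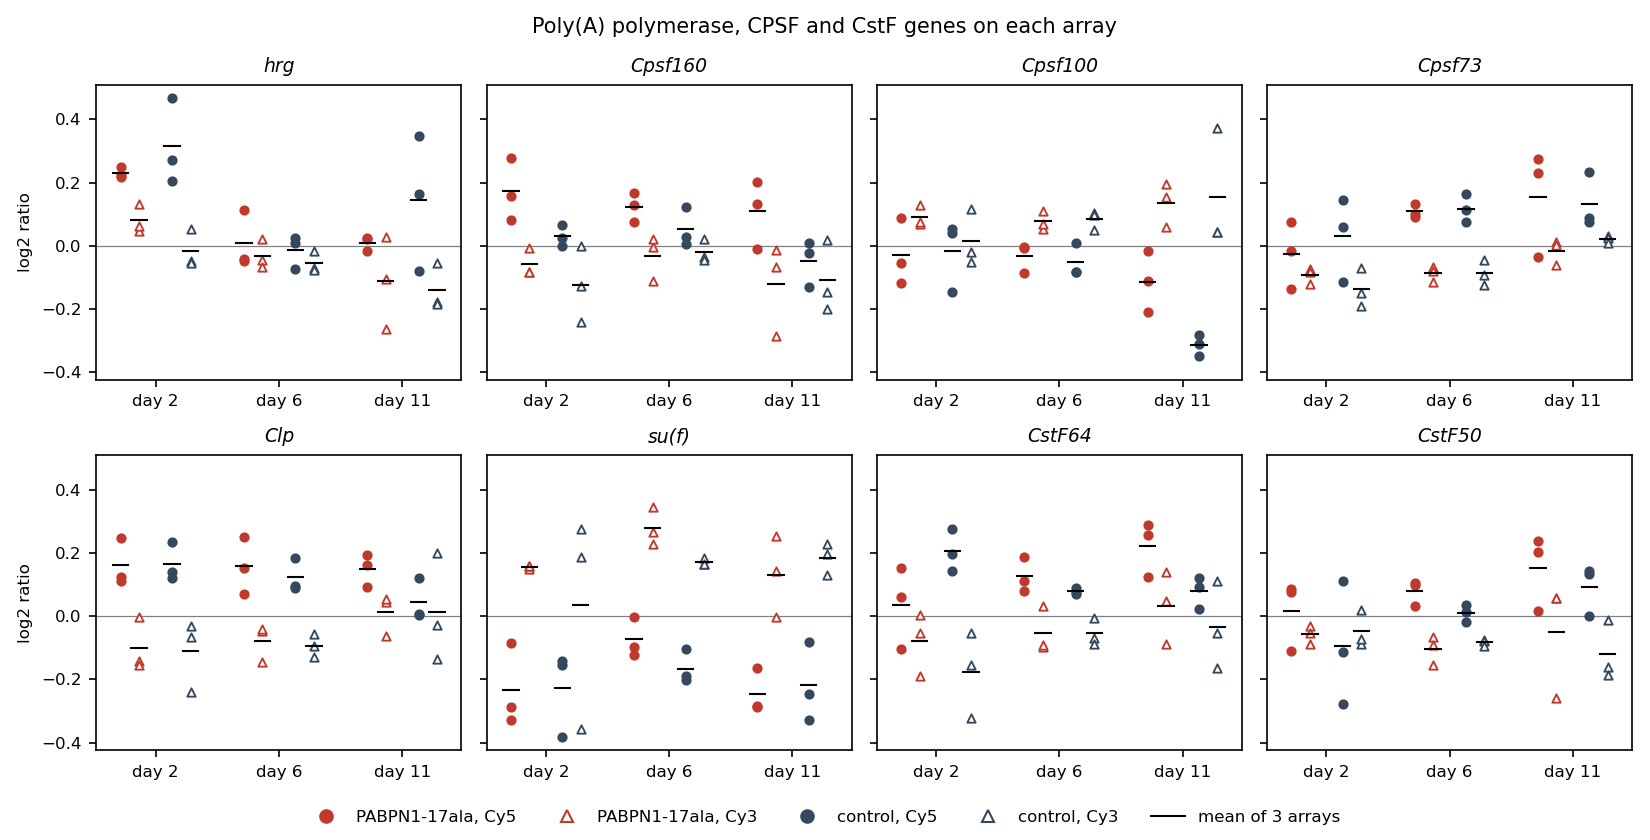
Log2 ratio (y axis, thorax over common reference) of hrg and of the CPSF and CstF genes on each array by age and genotype; filled circles are Cy5 arrays, open triangles Cy3 arrays, and bars are means of 3 arrays. In no panel and day are the genotypes separate on both dyes. Within 1 dye some are, as for Cpsf160 in Cy5 at day 2, Cpsf100 and CstF64 in Cy5 at day 11 and su(f) in Cy3 at day 6. The share of all genes that separate within 1 dye was not counted, so these are not read as differences. The dyes stand apart for several genes, most for su(f).

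The cytoplasmic poly(A)-binding protein gene pAbp had the widest spread of the 10 genes, and its ratios were lower at the later days. At day 2 its ratios ran from 0.70 to 0.86 with a median of 0.75 on the 6 PABPN1-17ala arrays, against 0.30 to 0.86 with a median of 0.61 on the control arrays. At day 6 they ran from -0.22 to 0.69 with a median of -0.01 in PABPN1-17ala flies, against -0.06 to 0.45 with a median of 0.16 in control flies. At day 11 they ran from -0.56 to 1.18 with a median of -0.38 in PABPN1-17ala flies, against -0.62 to 0.54 with a median of -0.02 in control flies. The genotypes overlapped at each day, and the log2 fold change over the 3 days was -0.01 with a wide 95% interval, from -0.33 to 0.31. The SD between arrays of one condition and dye was 0.37, so that a difference between genotypes of up to 1.65-fold higher or 0.60-fold at the low end at a single day was within the intervals.

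The age comparison set day 11 against day 2 within a genotype. It called 0 of the 10 genes in PABPN1-17ala flies, where 3.94% of all genes were called. In control flies it called 0 of 10, where 1.55% of all genes were called. Over all genes, Pearson's r between the changes in the 2 dyes was 0.651 in PABPN1-17ala flies but 0.143 in control flies. A gene with opposite signs in the dyes could not be called. At an unadjusted p below 0.05 there was 1 of the 10 genes, hrg, in PABPN1-17ala flies, against 9.12% of all genes, and 0 in control flies, against 5.39%. The single fit called 2 in PABPN1-17ala flies, hrg and pAbp, where it called 13.0% of all genes. In PABPN1-17ala flies the log2 change of pAbp was -0.92 (95% interval -1.48 to -0.36, limma's adjusted p = 0.817). The Cy5 ratios of pAbp were -0.26, -0.52 and -0.56 at day 11, against 0.71, 0.84 and 0.79 at day 2. The Cy3 ratios were 1.18, -0.25 and -0.49 at day 11, against 0.69, 0.86 and 0.71 at day 2. Thus 5 of 6 arrays at day 11 lay below all day 2 arrays of their dye, and replicate 4 lay above them. All 6 arrays lay below for 4.29% of all genes, and the share for at least 5 was not counted.

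With all arrays kept, pAbp was called in PABPN1-17ala flies by the single fit (limma's adjusted p = 0.00161), by means of assumed dye swap pairs (0.00685) and in Cy5 alone (0.000396), but not in Cy3 alone or by the fit that requires both dyes. Leaving out replicate 4 at day 11, chosen after its values were seen, made it a call in that fit too. Without that 1 array the log2 change of pAbp in PABPN1-17ala flies was -1.18 with limma's adjusted p = 0.00672. The same array was the one closest to day 6 over all genes. Its Gal4 coding sequence spot, which reads the driver, stood at -0.53, against -2.87 to -2.23 on the other 5 arrays of PABPN1-17ala at day 11. The median of the muscle markers on it was -0.21, against -2.06 to -0.82 on the others. In control flies the log2 change of pAbp was -0.58 (95% interval -1.14 to -0.02, adjusted p = 1), with -0.92 in Cy5 and -0.25 in Cy3. The difference of the age change between the genotypes was -0.33 (95% interval -1.12 to 0.46, adjusted p = 1). In PABPN1-17ala flies, leaving out replicate 4 moved it to -0.61 and leaving out replicate 6 moved it to -0.18, the widest moves on leaving out a replicate number. Muscle markers fell with age in both genotypes, and the Gal4 spot had a log2 difference, day 11 minus day 2, of -2.88 in PABPN1-17ala flies and -1.88 in control flies, and their part in the values of pAbp was not tested.

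**Figure D4:**
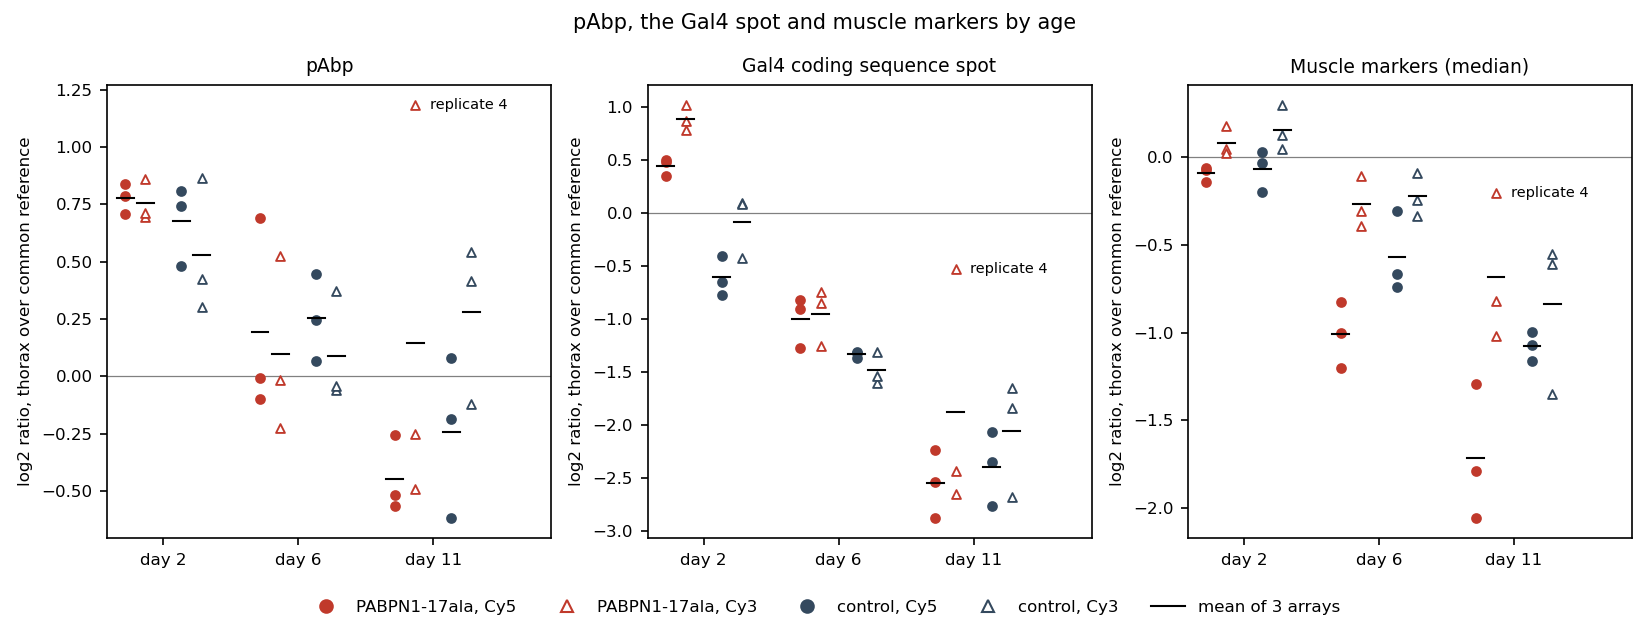
Log2 ratio (y axis, thorax over common reference) of pAbp, of the Gal4 coding sequence spot and of the muscle markers (median of 14 genes) on each array by age and genotype; filled circles are Cy5 arrays, open triangles Cy3 arrays, and bars are means of 3 arrays. Replicate 4 of PABPN1-17ala at day 11 is marked and lies above the other 5 arrays of its condition in all panels, at 1.18, -0.53 and -0.21.

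The reference is a pool of control RNA at day 2, yet pAbp lay above 0 on all 6 control arrays of that day, the lowest at 0.30. All 6 of these arrays were above 0 for 2.05% of genes, and at or above that lowest value for 0.116%.

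For hrg, day 11 lay below day 2 in PABPN1-17ala flies on every array. In Cy5 its ratios were 0.02, 0.02 and -0.01 at day 11, against 0.22, 0.22 and 0.25 at day 2, and in Cy3 -0.11, -0.26 and 0.03 at day 11, against 0.05, 0.13 and 0.06 at day 2. All 6 arrays at day 11 lay below all day 2 arrays of their dye, as for 4.29% of all genes. The log2 change was -0.21 (95% interval -0.38 to -0.03, adjusted p = 0.395). The single fit, where probable dye swaps count as replicates, gave limma's adjusted p = 0.0245. In control flies 4 of 6 arrays at day 11 lay below all day 2 arrays of their dye. All 6 did so for 2.58% of genes, and the share for at least 4 was not counted. The log2 change in control flies was -0.15 (95% interval -0.32 to 0.03, adjusted p = 1). It moved to -0.23 without control replicate 1 and -0.05 without control replicate 2.

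For Pabp2, day 11 and day 2 did not differ beyond the error in either genotype, with a log2 change of 0.02 in PABPN1-17ala flies (95% interval -0.17 to 0.20) and -0.08 in control flies (-0.27 to 0.11). As means of both dyes, the other 7 genes had log2 changes between -0.06 and 0.15 in PABPN1-17ala flies. In control flies these lay between -0.08 and 0.13. The dyes had opposite signs there for 5 of the 10 genes, among them Cpsf100 with -0.30 in Cy5 and 0.14 in Cy3.

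The ratios of the 10 genes had mostly weak correlations with each other over the arrays. Among their 45 pairs, Pearson's r over the 36 arrays, with dye means taken off, ran from -0.415 to 0.573 with a median of 0.088. Over all pairs of genes, the 5th to 95th percentiles were -0.37 and 0.46 and the median was 0.02. The highest r was between Clp and CstF64, followed by Cpsf100 and Clp (r = 0.554). CstF64 and Cpsf73 are neighbours in the genome and their annotated spans overlap, and they had r = 0.403. The 2 poly(A)-binding protein genes had r = -0.048.

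Other genes of mRNA 3′ end formation and poly(A) metabolism were read from 4 lists with 41 genes tested, of which 0 were called in each of the 7 comparisons. At an unadjusted p below 0.05 there were 2 of the 41 genes at day 11, against 5.99% of all genes, and 2 for the mean of the 3 days, against 7.71%, eIF4G1 and PAN2 both times, and 0 in the other 5 comparisons. These counts are below the shares over all genes. Among 9 further cleavage and polyadenylation factors, the mean over the 3 days ran from -0.04 for Pcf11, a termination factor, to 0.18 for Wdr33, a CPSF subunit that contacts the polyadenylation signal (adjusted p = 0.902). Among 16 Integrator and histone mRNA genes it ran from -0.07 for IntS3 to 0.12 for Slbp, the histone stem-loop binding protein. Among 9 genes of other poly(A) polymerases, the nuclear exosome and nuclear poly(A) RNA factors it ran from -0.08 for Nab2, a nuclear poly(A)-binding zinc finger protein, to 0.13 for Mtr4, an exosome helicase. Among 7 genes of cytoplasmic partners and the poly(A) nuclease it ran from -0.37 for eIF4G1, the translation initiation scaffold bound by pAbp (SE 0.11, adjusted p = 0.182), to 0.14 for eRF3, a release factor. PAN2, the poly(A) nuclease subunit, named after its value was seen, had -0.24 (SE 0.08, adjusted p = 0.158). For the mean of the 3 days the single fit counts probable dye swaps as replicates. It called 3 of the 41 genes, eIF4G1, PAN2 and Wdr33, against 9.68% of all genes. The medians of the 4 lists lay between -0.01 and 0.02, against 0.01 for all genes.

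**Figure D5:**
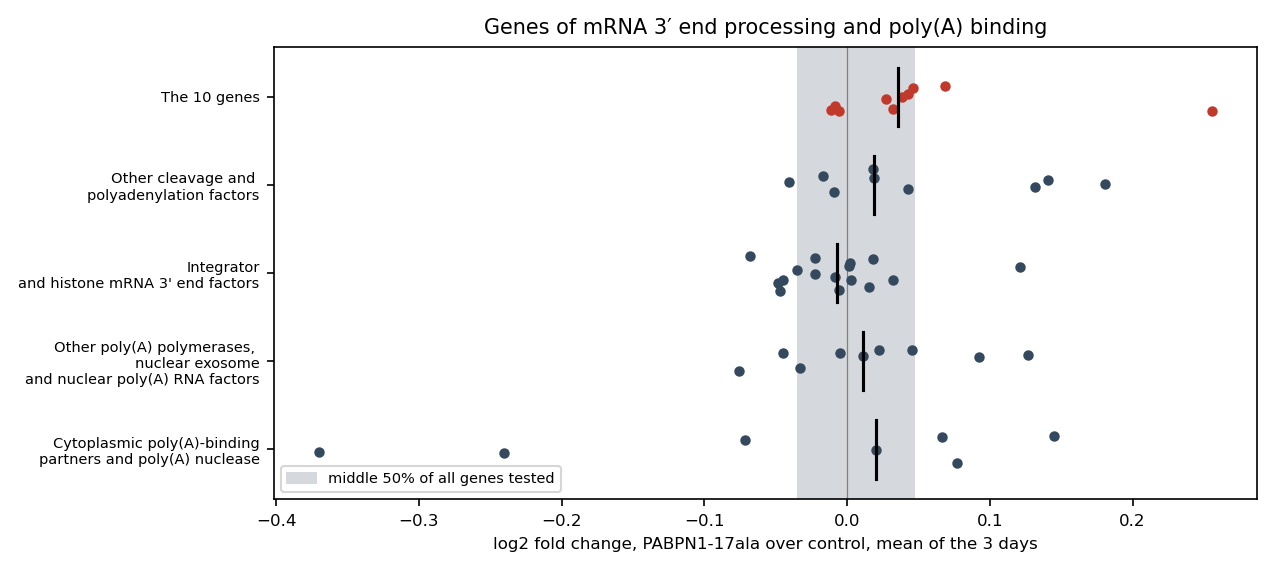
Log2 fold change of PABPN1-17ala over control as the mean of the 3 days (x axis) for the 10 genes and for the genes of 4 further lists (y axis); points are genes, bars are medians and the grey band holds the middle 50% of all genes tested. Pabp2 at 0.26 lies apart from the other 9 genes, and eIF4G1 at -0.37 and PAN2 at -0.24 lie lowest in the last list.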

How the data were processed

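The authors deposited a table of log2 ratios (log base read from the values) with 1 value per gene identifier and array for 36 two-colour arrays of thorax RNA, after their own normalization, which like the background correction is not given in the sources used here. Signal intensities were not used, and the number of arrays limits the precision. Of 13843 lines, 23 spots without a fly gene were kept apart. Symbols came from the RefSeq annotation of release 6 of the fly genome, with 12047 identifiers paired by locus tag, 1153 by synonym and 620 not paired. The 10 genes, the lists and the tests were chosen with earlier results of these data known.

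Tests used limma 3.58.1 under R 4.3.3, separately on the 18 Cy5 and the 18 Cy3 arrays, with 1 mean for every condition and moderated variances, over 13791 genes with at least 2 of 3 values per condition and dye. Fold changes and SEs were averaged over the dyes on the log2 scale, and p was the larger one, or 1 where signs differed, adjusted by Benjamini-Hochberg. P-values measure the spread between extracts and arrays. Outside the 10 genes, called genes and the highest and lowest of each list were named. IntS10 was left out because its identifier carries another symbol. The procedure was tested on simulated data. Alternatives were other ways to join the dyes, a replicate block, other normalizations and filters, and each replicate number left out in turn. Another was a two-way ANOVA without moderated variances. The study names a two-way ANOVA with genotype and time, but the sources used here give no settings, so that ANOVA may differ. Fits without the array of conflicting labels, or without replicate 4 of PABPN1-17ala at day 11, were added on seeing the data.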

Additional observations from a re-analysis of the deposited data

Results flagged for a closer look

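Among 60 sets of 6 arrays of a gene and condition, with dye means taken off, 6 held 1 array far from the other 5 by Dixon's criterion, where chance flags about 1 in 20 sets. The widest gap was that of pAbp on replicate 4 of PABPN1-17ala at day 11, where it was 0.792 of the whole range. The others were CstF50 on replicate 1 of PABPN1-17ala at day 2 (0.719), Pabp2 on control replicate 1 at day 2 (0.712), Cpsf100 on replicate 2 of PABPN1-17ala at day 2 (0.692), su(f) on control replicate 1 at day 6 (0.682) and Cpsf100 on control replicate 1 at day 6 (0.628).

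A spot for the Gal4 coding sequence, which is no fly gene and was in none of the tests, gave a signal. As the mean of both dyes, its log2 ratio at day 11 minus that at day 2 was -2.88 in PABPN1-17ala flies and -1.88 in control flies. By the same mean the other 22 spots without a fly gene lay between -0.15 and 0.18 in PABPN1-17ala flies. In control flies they lay between -0.27 and 0.08. Within a dye such spots could move more, with opposite signs that cancel in the mean. The Blank spot had 0.95 in Cy5 and -1.48 in Cy3 in control flies. The Gal4 spot fell in both dyes, by -2.99 and -2.76 in PABPN1-17ala flies and -1.79 and -1.98 in control flies. At day 2 the Gal4 spot was higher in PABPN1-17ala flies than in control flies by 1.01. These differences of means were not tested.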

How the results depend on the processing

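With 0 of the 10 genes called in each comparison, the way both dyes were joined moved the counts most. The single fit and means of assumed dye swap pairs each called 1 gene, Pabp2, at day 6 (5.20% and 4.92% of all genes), at day 11 (9.78% and 11.1%) and for the mean of the 3 days (9.68% in both). For age in PABPN1-17ala flies each called 2, hrg and pAbp (13.0% in both). Cy5 arrays alone called 1 for the mean of the 3 days (Pabp2, 6.38%), 1 for age in PABPN1-17ala flies (pAbp, 12.0%) and 2 for age in control flies (Cpsf100 and pAbp, 13.8%). There Cpsf100 had the opposite sign in Cy3, 0.14 against -0.30 in Cy5. Cy3 arrays alone called 1 at day 6 (Pabp2, 3.07%), 1 for the mean (Pabp2, 5.37%) and 1 for age in control flies (Cpsf73, 16.2%). Leaving out a replicate number gave 0 to 1 for age in PABPN1-17ala flies, and leaving out replicate 4 at day 11 alone gave 1 (pAbp, 5.87%). By construction, one fit, pairs and single dyes need not pass in both dyes, and leave-one-out fits use fewer arrays; the cause was not tested.

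For the values given one by one, 33 of 864 alternatives had the opposite sign and 0 of those were called; over all 10 genes and 7 comparisons it was 120 of 1701, all at most 0.14 in size. In Cy3 alone the values were 0.0061 for pAbp at day 6, and for the mean of the 3 days 0.0484 for hrg, 0.0016 for Cpsf73, 0.0322 for pAbp and -0.0313 for Slbp, and -0.0224 for Pabp2 with age in PABPN1-17ala flies. Centring each array gave -9e-04 for Pabp2 with age in PABPN1-17ala flies, quantile normalization gave -0.0355 for it and 0.0053 for hrg over the 3 days, and leaving out the array with conflicting labels gave 0.0033 for Cpsf73. Leaving out a replicate number gave -0.1494 to 0.054 for pAbp at day 6, -0.1282 to 0.0724 for pAbp, -0.0198 to 0.0023 for hrg, -0.0233 to 0.0096 for Cpsf73 and -0.2012 to 0.0051 for Nab2 over the 3 days, and -0.0541 to 0.0792 for Pabp2 with age in PABPN1-17ala flies. Such moves over 1.5 times with no change of sign included these. Without PABPN1-17ala replicate 4 IntS3 over the 3 days was -0.11 and pAbp between genotypes at day 11 -0.43 (-0.01 without replicate 6). Without control replicate 2 IntS3 was -0.02 and Pabp2 with age in control flies -0.11 (-0.03 without replicate 6). Pabp2 between genotypes, day 11 minus day 2, was 0.02 and 0.16 without PABPN1-17ala replicates 2 and 3.

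A replicate block within each dye gave 0.26 and adjusted p = 0.118 for Pabp2 over the 3 days and changed no call of the 10 genes. Deviations of same-numbered arrays of both genotypes correlated from -0.119 to 0.285, above 0.1 for 10 of 18 pairs and below -0.1 for 1. Pairing was not tested. The number of all genes called for the mean of the 3 days was 1335 in the single fit, 880 in Cy5 alone and 741 in Cy3 alone. At day 11 it was 1349 in the single fit, 63 after quantile normalization and 459 without replicate 4 at day 11. The number as reported, with its range over all alternatives, was 131 (45 to 559) at day 2, 221 (135 to 717) at day 6, 163 (0 to 1716) at day 11, 439 (315 to 1335) for the mean of the 3 days, 40 (20 to 831) for the change of the genotype difference, 544 (212 to 1795) for age in PABPN1-17ala flies and 214 (59 to 2232) for age in control flies.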
